A study of Mus musculus with 16 samples.

Results

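Repeated alcohol vapor was compared with control air in wild-type (WT) mice, by the RNA of single nuclei from the medial prefrontal cortex. The comparison took the 4 mice labelled as WT with alcohol (mice 6, 7, 17 and 18) and the 4 labelled as WT controls (mice 26, 27, 28 and 36), 8 of the 16 mice of the series. All were males of 22 weeks. Vapor mice had been given ethanol together with pyrazole, which blocks alcohol dehydrogenase, and repeated bouts of ethanol vapor. Controls had been given pyrazole in saline and kept in chambers with air, so that pyrazole, the chambers and a later water maze test were common to both groups. The paper states that tissue was taken days after the maze test and longer after the last vapor. Levels given here as with vapor are thus from a time after exposure, not during intoxication. The other 8 mice, 4 with vapor and 4 without, carried 3xTg-AD, a set of engineered alleles used as a model of Alzheimer's disease. The WT mice are labelled with the strain B6;129, a mixed background. The study asked how a history of alcohol intoxication alters prefrontal gene expression with and without this susceptibility; the WT mice give the effect of vapor alone.

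The medial prefrontal cortex, here the prelimbic and infralimbic areas, takes part in planning, memory and the restraint of behavior. Ethanol is known to enhance GABA-A receptors, which carry fast inhibition, and to block NMDA receptors, a class of excitatory glutamate receptor. Repeated intoxication and withdrawal are known to engage stress peptides, glia and innate immune genes in this region.

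The 8 WT mice gave 56753 of 114512 nuclei, between 4962 and 8905 per mouse, and between 9.62e+06 and 1.75e+07 unique molecular identifiers (UMIs, each standing for 1 captured RNA molecule) per mouse. Neither difference between the groups passed the test (exact permutation tests over mice, two-sided, p = 0.114 and 0.257). The marker of cortical excitatory neurons Slc17a7 was found in every mouse, at 623 to 678 CPM (UMIs scaled to a common total in each mouse) in controls and 588 to 664 CPM with vapor. Control mice 26 and 27 stood apart in transcripts that carry ribosomal RNA sequence: these took 3.31% and 2.25% of their UMIs, against 0.602% and 0.537% in controls 28 and 36 and 0.409% to 0.551% in the vapor mice (exact permutation test, p = 0.0571). Control 27 also held nuclei with striatal or olfactory neuron markers, at 22.2% of its classed nuclei against 0.866% to 2.47% in the other 3 controls and 0.804% to 1.38% in the 4 vapor mice. The summed markers of this class were lower in every vapor mouse (361 to 389 CPM) than in every control (394 to 961 CPM; exact permutation test, two-sided, p = 0.0286, the smallest possible, adjusted p = 0.243 over 17 measures). Most of this sum was Meis2, at 256 to 741 CPM in controls and 204 to 232 CPM with vapor. No other marker of the class was lower in every vapor mouse than in every control. Marker sums are per raw total UMIs, whereas gene and list levels are per scaled total. Pairs of WT mice shared between 4 and 23 cell barcodes.

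Counts were summed over all nuclei of each mouse, and 16767 genes were tested with edgeR's quasi-likelihood test. Vapor was followed by few changes that passed the test. Dynlt1f, which encodes a light chain of the motor protein dynein, and 9030025P20Rik, a protein-coding gene without an assigned name, were lower with vapor. Olfr545, an olfactory receptor gene, was higher, with control counts listed as 0 whose limit is given below. These 3 genes were 0.0179% of those tested at an adjusted p of at most 0.05 (Benjamini-Hochberg over all genes), 1 higher (0.00596%) and 2 lower (0.0119%). Without adjustment, 2377 genes, 14.2%, had p under 0.05, of which 1184 were higher and 1193 lower. DESeq2 on the same sums called 130 of the 8365 genes to which it gave an adjusted p, 38 of them higher. These 130 included Dynlt1f and 9030025P20Rik, and Olfr545 was given no adjusted p. A fit to the 8 WT mice alone called 0 of 16349 genes, while 2745 of its genes had an unadjusted p under 0.05.

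**Figure D1:**
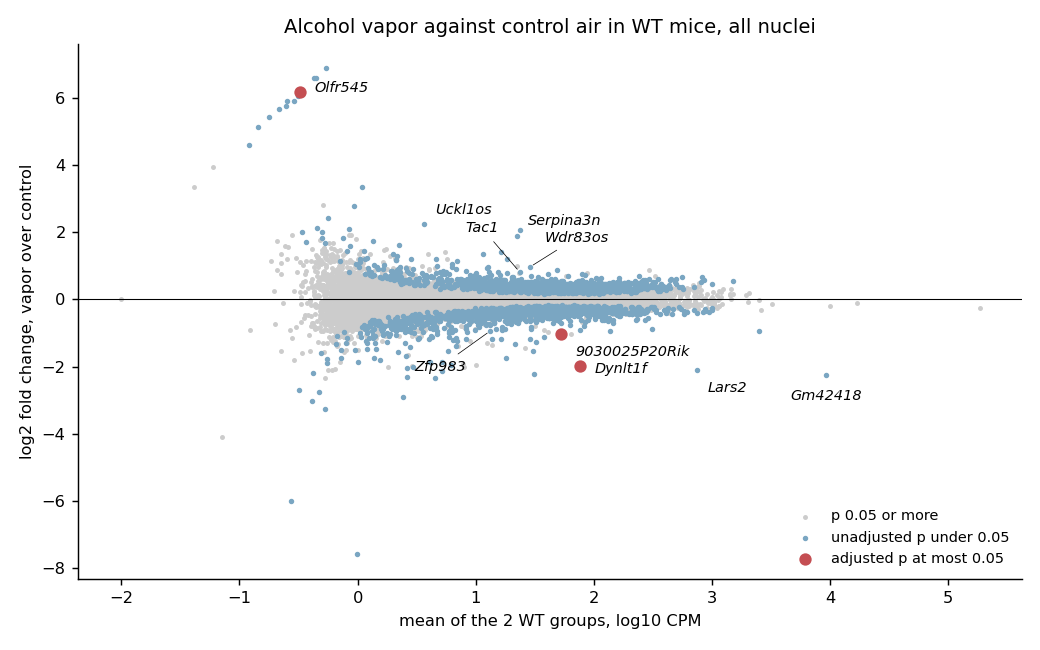
Log2 fold change of vapor over control (y axis) against the mean of the WT group means (x axis, log10 CPM) for all 16767 genes tested. The 3 red points passed the test: Dynlt1f and 9030025P20Rik lie at -1.98 and -1.04, Olfr545 at low counts lies at the top left, and Gm42418 and Lars2, at the right, lie low without passing.

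Dynlt1f (ENSMUSG00000095677) lies on chromosome 17 at 6646602 to 6655900, minus strand (GRCm38). Its level was 162 CPM in control 26, 110 CPM in control 27, 130 CPM in control 28 and 81.7 CPM in control 36. In the vapor mice it was 34.4 CPM in mouse 6, 35.2 CPM in mouse 7, 19.5 CPM in mouse 17 and 34.1 CPM in mouse 18. The groups did not overlap, and every vapor mouse was at less than the lowest control. The log2 fold change was -1.98 ± 0.24 (SE, adjusted p = 0.00316), and the gene was called in each of the 8 fits that left out 1 WT mouse (adjusted p from 0.00114 to 0.0193). It was not called in the fit to the 8 WT mice alone (-1.99, adjusted p = 0.0937) or with the ribosomal RNA share as a covariate (-1.90, adjusted p = 0.0602).

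Dynlt1f is 1 of 4 near-identical copies, Dynlt1a, Dynlt1b, Dynlt1c and Dynlt1f, on the same stretch of chromosome 17. Of the last 300 bases of the Dynlt1f transcript, the part that 3′ end libraries read, 298 were identical in Dynlt1a-201 and in Dynlt1b and 299 in Dynlt1c, while the other Dynlt1a transcript, Dynlt1a-202, aligned over 45 of them and shared 33, so reads can be shared between copies or discarded and the levels of single copies are uncertain. The promoters of Dynlt1f and Dynlt1c, from 250 bases before to 50 after the start (RefSeq, GRCm38.p6), are shown because they share a stretch of 192 bases in which only 3 differ. The stretch is offset by 108 bases between the windows: it is bases 109 to 300 of the Dynlt1f window, across the start of that gene, and bases 1 to 192 of the Dynlt1c window, ending 58 bases short of the RefSeq start there. The GENCODE start of Dynlt1c, at 6601671, lies 108 bases before the RefSeq one, at base 143 of the window and inside the stretch, where it aligns with base 251 of the Dynlt1f window, the RefSeq start of that gene. They lie at chr17:6655890-6656189, minus strand, and chr17:6601529-6601828, plus strand. Capitals mark the differing bases, which are C134A, T160C and G198C, with the Dynlt1f base first and positions counted from 1 at the 5′ end of the Dynlt1f sequence.
Dynlt1f: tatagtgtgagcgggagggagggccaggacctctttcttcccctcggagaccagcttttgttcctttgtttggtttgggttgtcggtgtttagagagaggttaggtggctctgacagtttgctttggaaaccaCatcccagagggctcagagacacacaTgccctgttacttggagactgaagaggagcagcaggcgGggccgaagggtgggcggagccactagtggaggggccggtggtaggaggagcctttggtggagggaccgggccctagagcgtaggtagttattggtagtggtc
Dynlt1c: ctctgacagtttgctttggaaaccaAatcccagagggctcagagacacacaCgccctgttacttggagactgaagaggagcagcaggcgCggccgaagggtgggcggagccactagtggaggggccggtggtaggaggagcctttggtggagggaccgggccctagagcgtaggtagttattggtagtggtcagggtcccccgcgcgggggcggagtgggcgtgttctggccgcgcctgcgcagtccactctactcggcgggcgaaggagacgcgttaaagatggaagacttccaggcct

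Dynlt1c was at 3.13 to 5.20 CPM in controls and 3.803 to 6.07 CPM with vapor, and these ranges overlapped (log2 fold change 0.13 ± 0.20). Dynlt1a was at 59.8 to 74.3 CPM in controls and 48.6 to 61.7 CPM with vapor, also overlapping, with a log2 fold change of -0.38 ± 0.12 (adjusted p = 0.255). Dynlt1b was near its detection limit, at most 3.65 CPM in any WT mouse.

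9030025P20Rik (ENSMUSG00000116953) lies on chromosome 17 at 14978468 to 14991572, plus strand. Its level was 85.2, 69.0, 63.6 and 63.6 CPM in controls 26, 27, 28 and 36, and 29.6, 33.2, 24.2 and 50.3 CPM in vapor mice 6, 7, 17 and 18. No vapor mouse reached a control. The log2 fold change was -1.04 ± 0.16 (adjusted p = 0.0497). The call stood at the threshold: it was lost without each of 7 WT mice (adjusted p up to 0.193) and held when vapor mouse 18, the highest of its group, was left out (-1.28, adjusted p = 0.000113).

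Olfr545 (ENSMUSG00000044824, chromosome 7, 102491466 to 102499573, minus strand) was listed at 0 UMIs in all 4 controls and at 8, 6, 13 and 12 UMIs in vapor mice 6, 7, 17 and 18, or 0.533 to 0.749 CPM. The table holds no gene with UMIs in 4 or fewer nuclei of a mouse, so a 0 stands for up to 4 nuclei and no fold is given. The edgeR fit took each 0 as a true count, so its adjusted p of 0.0497 has the same limit. The call was lost without each of the 8 WT mice (adjusted p from 0.0723 to 0.163). The 3xTg-AD mice all had the gene, at 0.516 to 1.17 CPM in controls and 0.789 to 1.02 CPM with vapor.

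The WT controls thus stood apart from the other 12 mice in Olfr545. They did so in 47 of the 16767 genes tested (0.28%), and the WT vapor mice did so in 118 (0.704%). The matching counts were similar in the 3xTg-AD mice, 42 (0.25%) for their controls and 134 (0.799%) for their vapor mice. Of the 21 genes named by rank here (the 3 called and the 10 with the lowest p in each direction), the WT controls lay outside the range of the other 12 mice in 4: 9030025P20Rik, Olfr545, Uckl1os and Zfp983. The WT vapor mice did so in 4 others, Wdr83os, Serpina3n, Syp and Ermard. These counts are a description, since the genes were chosen for the WT difference.

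**Figure D2:**
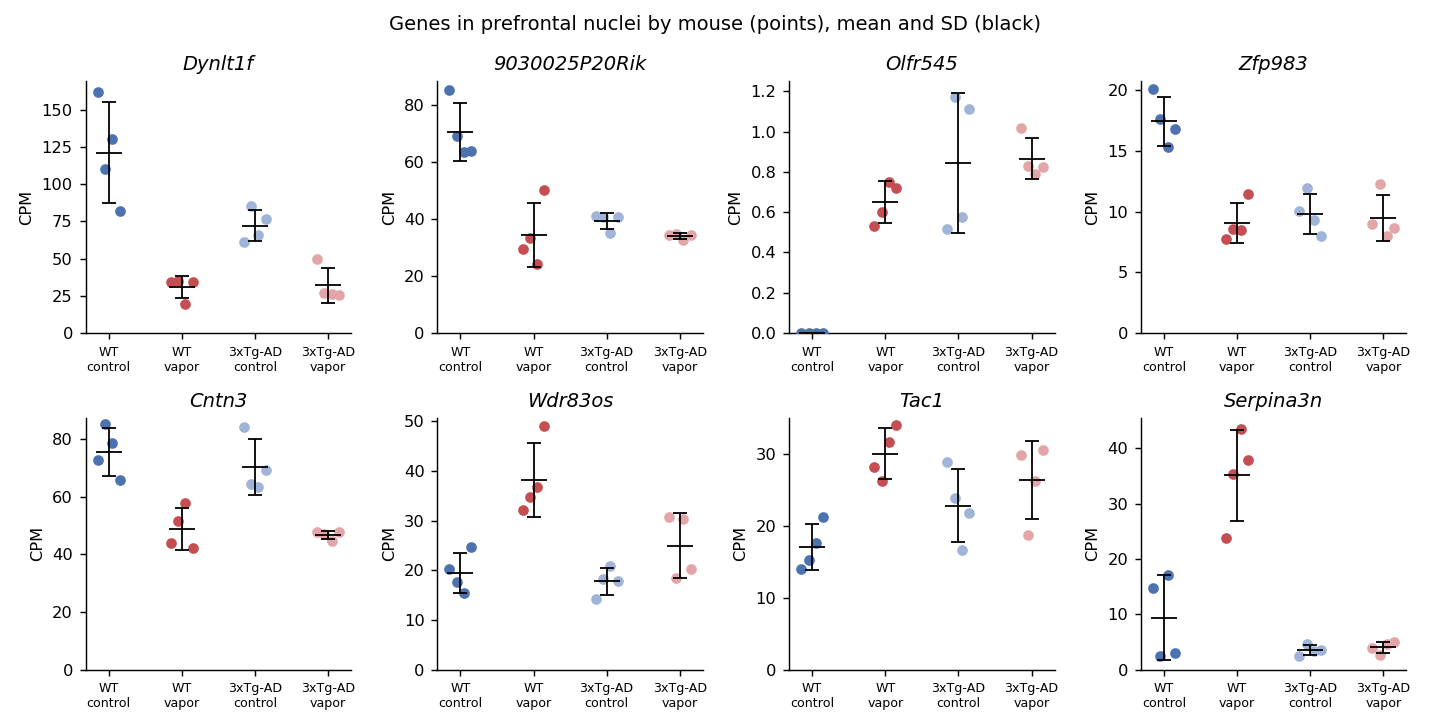
Level (CPM, y axis from 0) of 8 genes in each of the 16 mice, by group, with the mean and SD in black. In Olfr545, 9030025P20Rik and Zfp983 the WT controls stand apart from the other groups, and in Serpina3n the WT vapor mice are highest, at 23.8 to 43.4 CPM.

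Among the genes of higher level with vapor that did not pass the test, the lowest p belonged to Wdr83os, which encodes a small membrane protein of the endoplasmic reticulum. It was at 20.2, 17.6, 15.5 and 24.7 CPM in the controls and at 32.2, 34.8, 36.8 and 49.0 CPM with vapor. The groups did not overlap, and the log2 fold change was 0.97 ± 0.19 (adjusted p = 0.189). Tusc3, a subunit of the complex that attaches sugars to new proteins, was at 71.96 to 99.4 CPM in controls and 109 to 124 CPM with vapor. Acp1, a tyrosine phosphatase, was at 282 to 327 CPM against 375 to 475 CPM. Hnmt, which inactivates histamine, was at 10.7 to 15.1 CPM against 17.7 to 21.04 CPM. Syp, which encodes the synaptic vesicle protein synaptophysin, was at 216 to 272 CPM against 311 to 328 CPM, a log2 fold change of 0.38 ± 0.09. All of these had adjusted p of at least 0.189 in edgeR. DESeq2 called Wdr83os, Tusc3, Acp1 and Syp, with adjusted p of 0.00258, 0.00136, 0.000334 and 0.000334.

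Serpina3n, a protease inhibitor known to be induced in reactive astrocytes, had the largest fold among the genes named by rank whose level was higher with vapor and above 0 in every control. Its level was 14.8, 2.54, 17.1 and 3.00 CPM in controls 26, 27, 28 and 36, and 23.8, 35.3, 43.4 and 37.8 CPM in the vapor mice. The controls themselves fell into a higher and a lower pair, and the lowest vapor mouse was above both. The log2 fold change was 1.90 ± 0.44 (adjusted p = 0.234). In the 8 3xTg-AD mice it stayed between 2.41 and 4.95 CPM, and the vapor log2 fold change there was 0.20 ± 0.51. The difference between these effects had an unadjusted p of 0.0212 and an adjusted p of 0.944.

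Uckl1os, an antisense transcript of Uckl1, was at 3.16, 0, 0.972 and 0.817 CPM in the controls and 4.44 to 8.60 CPM with vapor. Whether the authors' counting used strand is not stated, and the part of Uckl1 reads in these counts was not tested. Wnt5b, a secreted signaling ligand, was listed at 0 in all 4 controls and at 0.50 to 1.32 CPM with vapor, and no fold is given. Without controls 26 and 27, Uckl1os was called, together with Olfr543, another olfactory receptor gene that lies outside the naming rule and was singled out after its values were seen.

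Among the genes of lower level with vapor that did not pass the test, Zfp983 (a zinc finger gene) had the lowest p. It was at 20.1, 17.6, 15.3 and 16.8 CPM in the controls and 7.72, 8.59, 8.47 and 11.5 CPM with vapor, without overlap (log2 fold change -0.94 ± 0.16, adjusted p = 0.0888). Cntn3, a contactin that mediates neuronal adhesion, was at 65.9 to 85.2 CPM against 42.1 to 57.9 CPM (-0.63 ± 0.12, adjusted p = 0.136). Crebzf, a transcription factor of the bZIP class, was at 291 to 372 CPM against 192 to 241 CPM. Hipk2, a nuclear kinase, was at 143 to 168 CPM against 85.8 to 122 CPM. Rnf112, a neuronal ubiquitin ligase, was at 247 to 333 CPM against 158 to 208 CPM, and Iqcg at 13.6 to 17.1 CPM against 7.20 to 11.5 CPM. In all of these the 2 groups did not overlap, and their adjusted p in edgeR lay between 0.0888 and 0.232. DESeq2 called Cntn3, Crebzf, Rnf112 and Hipk2, with adjusted p of 0.000334, 0.000598, 0.00316 and 0.00516, and gave no adjusted p for Zfp983 and Iqcg. In the 3xTg-AD mice, where edgeR called 81 genes for vapor (0.483%), Iqcg (-0.98 ± 0.16), Hipk2 (-0.77 ± 0.13), Cntn3 (-0.59 ± 0.12) and Dynlt1f (-1.17 ± 0.24) were called as lower, with adjusted p of 0.0146, 0.0177, 0.0314 and 0.0369. Their log2 fold changes in WT mice were -0.69, -0.57, -0.63 and -1.98. Over all genes, 6.96% had all 4 vapor mice above all 4 controls and 4.24% had all 4 below.

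Dynlt1f, Zfp983, Tmem181a, Ermard and Chd1 among the genes of lower level, and 9030025P20Rik, all lie on the first 22 Mb of chromosome 17. Tmem181a encodes a membrane protein, and its 3′ end overlaps that of Dynlt1a on the other strand. It was at 208, 141, 168 and 206 CPM in the controls and at 77.8, 73.3, 81.1 and 145 CPM with vapor, where mouse 18 overlapped the controls. Ermard was at 23.9 to 27.5 CPM against 16.3 to 21.2 CPM, and Chd1, a chromatin remodeler, at 36.9 to 50.3 CPM against 29.6 to 34.3 CPM. DESeq2 called Tmem181a, Ermard and Chd1, with adjusted p of 0.00416, 0.00427 and 0.00636. Of 114 genes tested on this stretch, 22 were lower and 8 higher at an unadjusted p under 0.05. In windows of 20 Mb, the first window of chromosome 17 held 25 such genes of 96 tested, 26.04%, the highest share among the 137 windows with at least 30 genes tested (lowest 3.23%, median 14.3%). It also held 6 of the 67 genes with p under 0.001. Zfp983 lies beyond this window and is not among the 6. Gm49719 is among them and was higher with vapor without overlap (1.61 ± 0.37, adjusted p = 0.234), and the others were lower. The window was singled out after its values were seen and carries no test. In the 3xTg-AD mice the vapor log2 fold changes of 9030025P20Rik, Zfp983, Tmem181a and Ermard were -0.21, -0.05, -0.13 and 0.04, and those of Dynlt1f and Chd1 were -1.17 and -0.36 (for Chd1, unadjusted p = 0.00425, adjusted p = 0.15). Whether the WT mice differed by descent along this stretch was not tested.

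**Figure D3:**
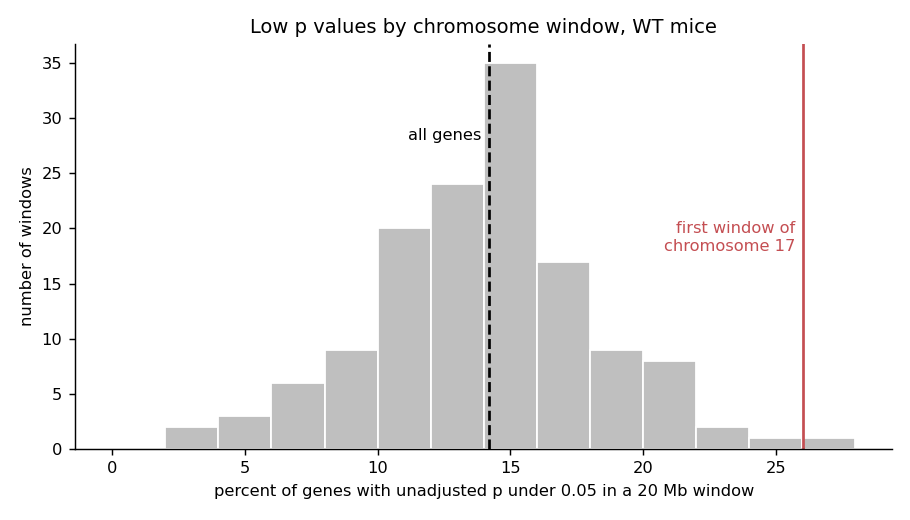
Number of 20 Mb chromosome windows (y axis) by the percent of their tested genes with an unadjusted p under 0.05 (x axis). The first window of chromosome 17, at 26.04% (red line), lies to the right of the other windows, and all genes together give 14.2% (dashed line).

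Genes were then read by function. None of the 23 lists contained a gene that passed the test in edgeR, so counts at an unadjusted p under 0.05 are given beside the 14.2% of all genes (7.06% higher and 7.12% lower) and the median log2 fold change of all genes, -0.01. Members beyond 3 of a list were named after their values were seen, to complete these counts. Sums over all nuclei cannot tell more nuclei of a type from more RNA per nucleus.

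**Figure D4:**
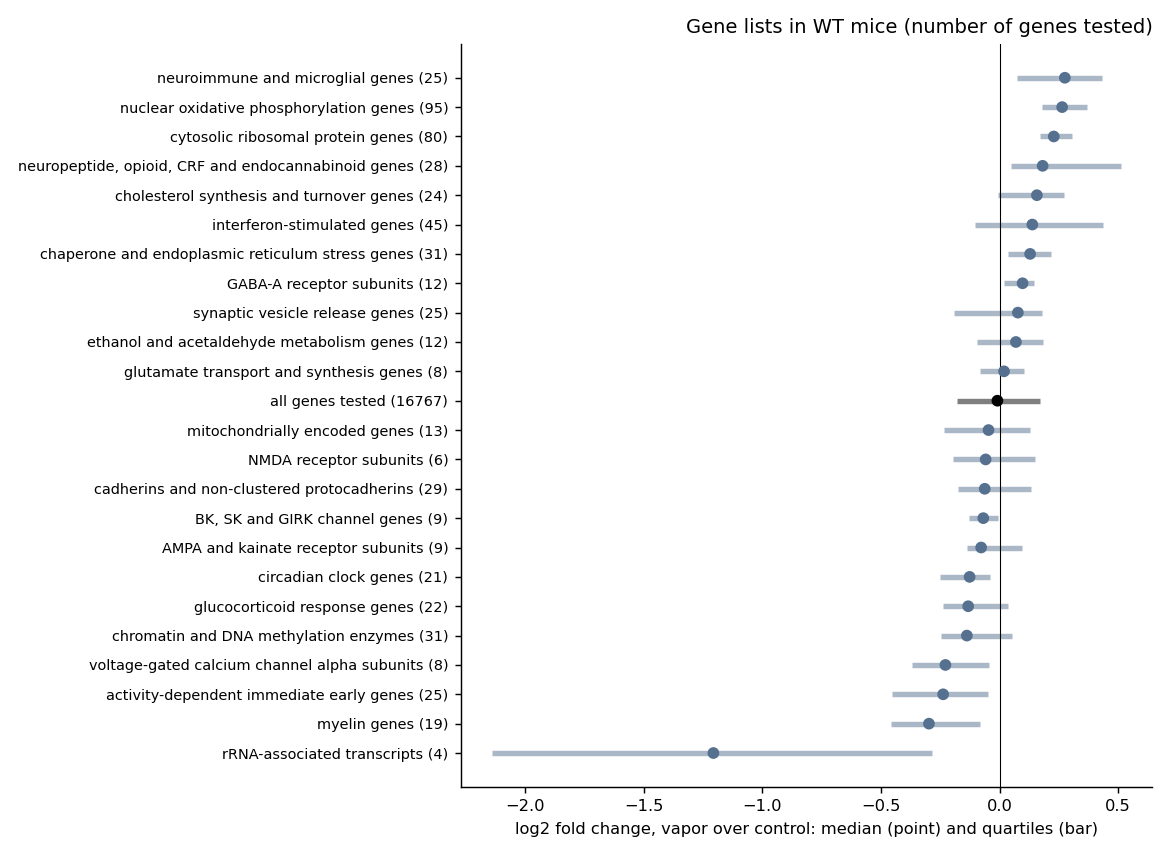
Median log2 fold change of vapor over control (point) and quartiles (bar) for each of 23 gene lists and for all genes tested (black), with the number of genes in parentheses. Oxidative phosphorylation and ribosomal protein genes lie right of 0 with their whole quartile bars and the transcripts with ribosomal RNA sequence lie far left.

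The lists of nuclear oxidative phosphorylation genes and of cytosolic ribosomal protein genes had nearly all members on the same side of 0. Of 95 nuclear genes for subunits and assembly factors of oxidative phosphorylation, the mitochondrial machinery that makes ATP, 91 had a log2 fold change above 0, against 48.7% of all genes. Their median was 0.26, 25 were higher and 1 lower at an unadjusted p under 0.05, and in 49 all 4 vapor mice were above all 4 controls (51.6%, against 6.96% of all genes and 10.8% of the 7983 genes at 20 CPM or more). Their summed level was 14132, 14679.9, 14317 and 14819 CPM in controls 26, 27, 28 and 36 and 17014, 16485, 17345 and 18468 CPM in the vapor mice, with no overlap. Uqcrfs1, the iron-sulfur subunit of complex III, was at 49.1 to 56.9 CPM against 63.4 to 78.5 CPM (0.47 ± 0.15, adjusted p = 0.257). Ndufs8, a core subunit of complex I, was at 46.2 to 54.7 CPM against 65.2 to 72.6 CPM, and its assembly factor Ndufaf3 at 28.3 to 37.5 CPM against 38.4 to 47.7 CPM. The 13 genes encoded by the mitochondrial genome itself had a median of -0.05, with 1 of them, mt-Atp8, at an unadjusted p under 0.05 (-0.59 ± 0.25).

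Of 80 cytosolic ribosomal protein genes, 78 had a log2 fold change above 0. The median was 0.23, 8 were higher and 0 lower at an unadjusted p under 0.05, and this share, 10%, lay below the 14.2% of all genes. In 42 (52.5%, against 6.96% of all genes and 10.8% of those at 20 CPM or more) all 4 vapor mice were above all 4 controls, and in 0 all were below. Their summed level was 23076, 24487, 22210.3 and 21268 CPM in the controls and 26719, 27186, 25226 and 28295 CPM with vapor. Rpl10 was at 119 to 164 CPM against 182 to 208 CPM, Rps4x at 197 to 228 CPM against 282 to 336 CPM, and Rps2 at 185 to 252 CPM against 297 to 388 CPM. Gapdh, a glycolytic enzyme named after its values were seen, was at 407 to 445 CPM against 592 to 811 CPM. These transcripts are mostly spliced and cytoplasmic, and the nuclear RNA Malat1 was at 127507 to 285705 CPM in controls and 128052 to 196946 CPM with vapor. The mitochondrial share of UMIs was 0.877% to 1.02% in controls and 0.991% to 1.10% with vapor (exact permutation test, p = 0.171). The part of RNA from outside nuclei in these lists was not tested. In the 3xTg-AD mice the vapor medians were 0.05 for the oxidative phosphorylation list and 0.12 for the ribosomal list. Their summed oxidative phosphorylation levels ran from 11151 to 17500 CPM in controls and 11930 to 20351 CPM with vapor. Their ribosomal sums ran from 17891 to 25551 CPM and from 18328 to 33160.5 CPM. In both lists the 3xTg-AD vapor mice alone spanned a wider range than all WT mice. List members were counted in the same mice, so counts of members are not independent.

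Neuropeptide, opioid, corticotropin-releasing factor and endocannabinoid genes came next. Of 28 tested, 9 were higher and 1 lower at an unadjusted p under 0.05 (35.7%), with a median of 0.18. Tac1, the precursor of substance P, was at 14.03, 15.3, 17.7 and 21.2 CPM in the controls and 28.2, 26.2, 31.7 and 34.02 CPM with vapor, with no overlap (0.82 ± 0.18, adjusted p = 0.232). DESeq2 called it, with an adjusted p of 0.0117. Tac2, the precursor of neurokinin B, was at 7.70 to 15.3 CPM against 16.4 to 22.2 CPM (0.82 ± 0.22), and Pnoc, the precursor of nociceptin, at 3.32 to 4.77 CPM against 5.65 to 9.79 CPM. Vip (0.59), Sst (0.57), Npy (0.49), Npy2r (0.56), Crhbp (0.50) and Cnr1 (0.30) made up the rest of the higher members, by log2 fold change. Penk, the enkephalin precursor, was the lower one, at -0.74. Many of these peptides are made by GABAergic interneurons, whose marker genes summed to 228, 515, 301 and 319 CPM in controls 26, 27, 28 and 36 and 299 to 360 CPM with vapor. The highest control is mouse 27, with its striatal or olfactory nuclei, and without it the controls ran from 228 to 319 CPM, lower than or overlapping the vapor mice. In GABAergic neuron-like nuclei 17 genes of the list had a median of 0.43, and 88.2% were above 0, against 49.6% of all genes there. This was not particular to that class. The median was 0.16 in the glutamatergic class, 0.18 in the astrocyte class and 0.32 in the oligodendrocyte class. It was 0.17 in the microglia class and 0.48 in the striatal or olfactory class. The part of interneuron number in the list was not tested.

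Of 25 neuroimmune and microglial genes tested, 7 were higher and 1 lower at an unadjusted p under 0.05 (32.0%), with a median of 0.28. Beside Serpina3n, the complement subunits C1qa (12.6 to 21.6 CPM against 21.8 to 25.6 CPM) and C1qc (9.51 to 15.1 CPM against 13.8 to 20.6 CPM) were highest in the vapor group, C1qc with overlap. Cd74 (1.19), Aif1 (0.50), C1qb (0.52) and the lysosomal protease Ctsd (0.36) completed the higher members, and Myd88, an adaptor of Toll-like receptors, was the lower one (-0.44). The 12 microglial markers, none of them at 0 in any WT mouse, summed to 106 to 158 CPM in controls and 148 to 205 CPM with vapor (exact permutation test, p = 0.0571, adjusted p = 0.243 over 17 measures). These markers include C1qa, C1qb and C1qc, so that the sum partly restates the list, and the 9 others summed to 74.8 to 106 CPM in controls and 90.7 to 133 CPM with vapor. Microglial nuclei made up 1.05% to 2.38% of classed nuclei in controls and 1.72% to 3.73% with vapor. The part of microglial number in the list was not tested. Of 45 interferon-stimulated genes, 4 were higher and 1 lower at an unadjusted p under 0.05 (11.1%), with a median of 0.14. B2m, the light chain of class I antigen-presenting molecules, was at 20.5 to 24.6 CPM against 29.9 to 36.4 CPM (0.53 ± 0.20), and H2-K1 at 5.57 to 8.19 CPM against 8.09 to 14.2 CPM.

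No gene for the receptors through which ethanol acts passed the test. Of 12 GABA-A receptor subunits, 1 was higher at an unadjusted p under 0.05, the subunit gene Gabrb1 (148 to 188 CPM against 191 to 200 CPM, 0.25 ± 0.10, adjusted p = 0.308), and the median was 0.10. Of 6 NMDA receptor subunits tested, Grin3a was higher (0.34 ± 0.10) and Grin2c and Grin2a were lower (-0.42 ± 0.15 and -0.24 ± 0.10) at this level. Of 9 AMPA and kainate receptor subunits, Gria4 alone reached it (191 to 308 CPM against 179 to 200.8 CPM, -0.45 ± 0.13). None of 8 glutamate transport and synthesis genes and none of 9 BK, SK and GIRK potassium channel genes did, with medians of 0.02 and -0.07. Of 8 pore-forming subunits of voltage-gated calcium channels, 4 were lower: Cacna1d (355 to 560 CPM against 263 to 342 CPM), Cacna1i, Cacna1h and Cacna1c, with log2 fold changes of -0.44, -0.42, -0.35 and -0.31. The median of these 8 was -0.23. Of 25 synaptic vesicle release genes, 3 were higher (Syp and Syn2 among them) and 4 lower (Syt2, Unc13a, Unc13b and Syt7), with a median of 0.08.

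Genes that follow activity, stress and time of day were read next, and none passed the test. Of 25 activity-dependent immediate early genes, 4 had a log2 fold change above 0, and Homer1 (173 to 359 CPM against 166 to 196 CPM) and Nr4a2 were lower at an unadjusted p under 0.05. The median was -0.24, and the summed level in controls ran from 674 to 1418 CPM, beyond the 764 to 1069 CPM of the vapor mice on both sides. Of 21 circadian clock genes, 4 were lower and 0 higher: Per2 (30.1 to 38.4 CPM against 21.2 to 24.3 CPM, without overlap, -0.63 ± 0.19, adjusted p = 0.255), Per1, Nr1d2 and Bhlhe41. Of 22 glucocorticoid response genes, Mt3, a metal-binding protein, was higher (194 to 307 CPM against 326 to 426 CPM), and Per1, Fkbp5 and Plin4 were lower. Of 31 chaperone and endoplasmic reticulum stress genes, 25 had a log2 fold change above 0, with a median of 0.13, and the 2 members at an unadjusted p under 0.05, Dnajb5 and Chordc1, were lower.

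Of 31 chromatin and DNA methylation enzymes, 6 were lower and 0 higher at an unadjusted p under 0.05, led by the deacetylase Hdac7 (103 to 146 CPM against 86.7 to 96.9 CPM, -0.48 ± 0.14) and the methyltransferases Prdm2 (-0.40 ± 0.13, and -0.59 ± 0.13 in the 3xTg-AD mice, where it was called with an adjusted p of 0.047) and Ehmt1 (-0.31 ± 0.11). Of 24 cholesterol genes, 6 were higher and 1 lower, the higher ones including the synthesis enzymes Idi1 (22.9 to 25.5 CPM against 27.3 to 34 CPM), Fdft1, Fdps, Hmgcs1 and Msmo1, and the lower one the exporter Abca1. The median of 0.16 dropped to 0.04 without controls 26 and 27 and to 0.05 with the ribosomal RNA share as a covariate. Of 12 ethanol and acetaldehyde metabolism genes tested, Acss2, which makes acetyl-CoA from the acetate that ethanol yields, was lower (53.1 to 96.6 CPM against 45.9 to 57.1 CPM, -0.46 ± 0.16). Aldh1b1 and Adh5 had overlapping ranges and log2 fold changes of 0.42 and 0.19. None of 19 myelin genes reached an unadjusted p of 0.05, with a median of -0.30 and summed levels of 401 to 953 CPM in controls and 480 to 1052 CPM with vapor. Oligodendrocyte-like nuclei made up 1.25% to 9.56% of classed nuclei in controls and 2.26% to 8.46% with vapor, with means of 6.33% and 4.55%. Within these nuclei the 19 genes, 9 of them markers that chose the nuclei, had a median of 0.04 and 63.2% above 0, against 49.4% of all genes there. Of 29 cadherins and non-clustered protocadherins, Pcdh19 was higher (22.8 to 48.3 CPM against 46.7 to 61.2 CPM) and Pcdh9 lower.

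The transcripts with ribosomal RNA sequence were lower with vapor in the mean but did not pass the test. Gm42418 was at 32979, 20685, 4095 and 3529 CPM in controls 26, 27, 28 and 36 and 2419 to 3978 CPM with vapor, and Lars2 at 2534, 1612, 353 and 318 CPM against 216 to 341 CPM. Their log2 fold changes were -2.25 ± 0.71 and -2.10 ± 0.63 (adjusted p = 0.259 and 0.255). In both genes control 36 lay within the range of the vapor mice, and control 28 lay just above their highest. Gm26917 (-0.31 ± 0.16) and AY036118 (-0.19 ± 0.18) complete the list, and AY036118 was at 0.16 in the other direction without controls 26 and 27.

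Nuclei were also sorted into classes by lists of marker genes, at least 3 UMIs of a class and 2 times those of any other. The rule placed 44.9% to 58.3% of the nuclei of a WT mouse, and the rest are in none of these values. Glutamatergic neuron-like nuclei were the most numerous, at 45.6% to 70.6% of classed nuclei in controls and 63.3% to 66.8% with vapor. No difference in share passed the test (exact permutation tests, two-sided, p from 0.171 to 0.629 over 9 classes, smallest possible p = 0.0286). Nuclei of the astrocyte and the striatal or olfactory classes had none of their own markers among their leading genes by fold. They had none of the markers of other classes there either, and these classes are named by the rule only.

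Counts within a class leave out the marker genes of all classes, which stayed in the fit and in the adjustment. In glutamatergic neuron-like nuclei 14699 genes were tested. Of the 14627 that were not markers, 5 were called (0.0342%), and 1862 (12.7%) had an unadjusted p under 0.05. Dynlt1f had a log2 fold change of -2.02 ± 0.24 (156 ± 43.4 CPM in controls, 38.8 ± 9.41 CPM with vapor, SD, n = 4 each; adjusted p = 0.00326). 9030025P20Rik was at -0.98 ± 0.16, Zfp983 at -0.99 ± 0.18 and Cntn3 at -0.71 ± 0.12. The called gene of higher level, 0610040B10Rik, an antisense transcript, was at 9.19 ± 0.821 CPM against 16.6 ± 2.20 CPM. Dynlt1f was called without any single WT mouse (adjusted p at most 0.0214). Cntn3 was lost without 4 of the 8 mice (adjusted p up to 0.0989), 9030025P20Rik and Zfp983 without 6, and 0610040B10Rik without each.

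In GABAergic neuron-like nuclei 8468 genes were tested. Of the 8440 that were not markers, 5 were called (0.0592%), and 731 (8.66%) had an unadjusted p under 0.05. Dynlt1f was again the first, at 78.0 ± 11.9 CPM against 20.7 ± 5.02 CPM (-1.90 ± 0.26, adjusted p = 8.79e-06), and was called without any single WT mouse (adjusted p at most 0.000415). The antisense transcript Gm49179 (-0.80 ± 0.16), the sphingolipid enzyme gene Degs2 (-1.23 ± 0.27) and Col11a1 (-1.27 ± 0.27), a collagen gene, were lower, and Scg5 (0.76 ± 0.16), a chaperone of peptide hormone processing, was higher, at 153 ± 25.5 CPM against 262 ± 14.2 CPM. Col11a1 lies outside the naming rule and completes the count. Gm49179 was lost without 2 of the 8 mice (adjusted p up to 0.131), and Degs2, Col11a1 and Scg5 without 6. Degs2 (-1.19 ± 0.18), Gm49179 (-0.92 ± 0.15) and 0610040B10Rik (0.99 ± 0.17) were among the genes called over all nuclei for vapor in the 3xTg-AD mice, with adjusted p of 0.0112, 0.0177 and 0.0177. Values of the genes called in GABAergic nuclei had the same signs over all nuclei in WT mice, and whether the effects differ between classes was not tested.

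Marker genes aside, no gene was called in the other 6 classes tested by edgeR. In astrocyte-class nuclei 10700 genes were tested, and 1031 of the 10645 that were not markers had an unadjusted p under 0.05 (9.69%). There 9030025P20Rik was at -1.04 ± 0.23 (adjusted p = 0.0825), and DESeq2 called 4 genes. Again without markers, the count at an unadjusted p under 0.05 was 346 of 4933 (7.01%) in the oligodendrocyte class and 139 of 1585 (8.77%) in oligodendrocyte precursors. It was 246 of 2803 (8.78%) in microglia, 43 of 769 (5.59%) in endothelial cells and 314 of 3570 (8.8%) in striatal or olfactory neurons. DESeq2 called 0 in each of these classes. C1qa in microglia-like nuclei was at 496 ± 217 CPM in controls and 905 ± 40.7 CPM with vapor (adjusted p = 0.383), while C1qc there was at 745 ± 147 CPM against 762 ± 264 CPM (0.11 ± 0.23, adjusted p = 0.894). Both genes are among the markers that chose these nuclei, so their adjusted p cannot be read as a test of their level there. In glutamatergic neuron-like nuclei C1qa was at 7.92 ± 2.06 CPM against 11.9 ± 0.719 CPM, and the part of RNA from other cells in these values was not tested. Serpina3n in the astrocyte class was at 22.2 ± 13.8 CPM against 56.5 ± 18.4 CPM (1.33 ± 0.34, adjusted p = 0.266), and it was also found in glutamatergic neuron-like nuclei (6.84 ± 6.14 CPM against 27.4 ± 7.12 CPM).

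**Figure D5:**
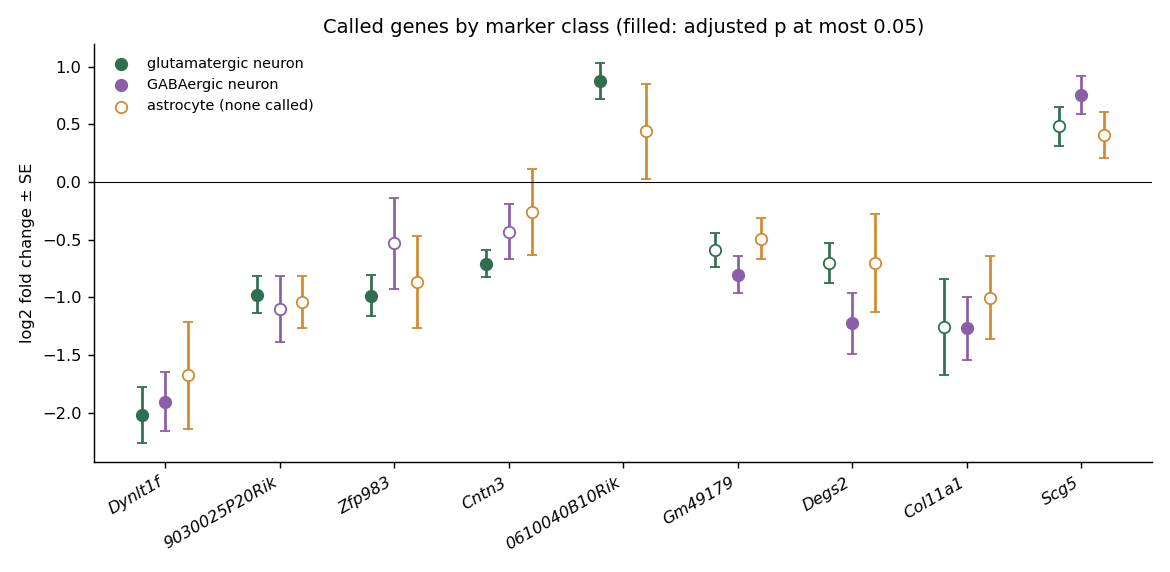
Log2 fold change of vapor over control with its SE (y axis) for the genes called in either neuronal class, in 3 marker classes. Filled points passed the test; Dynlt1f is at -2.02 and -1.90 in both neuronal classes, and each gene has the same sign in every class shown.

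The vapor effect in 3xTg-AD mice minus that in WT mice passed the test in 0 of 16767 genes, and 583 (3.48%) had an unadjusted p under 0.05. DESeq2 called 1 gene, Klk1b22, named after its value was seen. For Dynlt1f the vapor log2 fold change was -1.98 in WT and -1.17 ± 0.24 in 3xTg-AD mice, whose vapor mice were at 25.7 to 49.6 CPM and controls at 61.3 to 85.0 CPM. The difference of 0.81 ± 0.33 had an adjusted p of 0.944. For 9030025P20Rik the difference was 0.83 ± 0.23 (unadjusted p = 0.00213, adjusted p = 0.944), and the 3xTg-AD controls, at 35 to 41.1 CPM, lay below the 4 WT controls.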

How the data were processed

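Nuclei were profiled with the 10x Genomics 3′ v3.1 kit. Per the labels and methods, the authors aligned reads to mm10 with Cell Ranger 6.1.1, which uses STAR. The deposited table holds raw UMI counts of 19999 genes in 114512 nuclei of 16 mice. Gene and mouse pairs with counts in 4 or fewer nuclei do not occur in it. Counts were summed per mouse, which is the replicate (n = 4 per group). Genes were tested with edgeR 4.0.16 (TMM scaling, filterByExpr, robust quasi-likelihood, 1 mean for each of 4 groups over 16 mice, Benjamini-Hochberg adjustment, call at 0.05), and CPM of genes and gene lists use the TMM-scaled totals, while sums of marker genes use raw totals. DESeq2 1.42.0, the authors' tool, was an alternative. SE values are of the fitted log2 fold change. Positions are from GENCODE M21 (GRCm38), which matched 19674 of 19999 gene names. Marker classes needed 3 UMIs. No doublet caller was run; leaving out nuclei with markers of 2 or more classes was an alternative. Nothing was filtered otherwise. The fit was tested on simulated counts with the same spread for every gene and planted changes. No simulated mouse stood apart from its group, so that test does not cover such mice. Depth was 9.62e+06 to 1.75e+07 UMIs per WT mouse. Permutation tests were exact, and 4 against 4 mice cannot go below p = 0.0286.

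Named genes were those called, the 10 of lowest p in each direction without Gm or Rik names, up to 4 of lowest p per list (3 were taken), all transcripts of the ribosomal RNA list, and up to 3 called genes per class and direction. Other list members that complete a count, Col11a1, Olfr543, Klk1b22, Kcnip4, Gapdh, Gm49719 and Meis2 fall outside this rule and were named after their values were seen. The copies of Dynlt1f, Slc17a7 and Malat1 are checks. The members and lists were chosen with earlier results of these data known, and the ribosomal list was restricted to ribosomal proteins by name later. Alternatives were DESeq2, RLE scaling, no filter, the WT mice alone, each WT mouse left out, controls 26 and 27 left out, a ribosomal RNA covariate, these genes left out, filters on nuclei, and thinning. Some genes counted in the lists are not reported here by name.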

Additional observations from a re-analysis of the deposited data

Results flagged for a closer look

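In 208 groups of 4 mice that were looked at, 11 held a mouse far from the other 3, about as many as the 10.4 that chance gives at 1 in 20. Of these, 2 touch the genes of lower level with vapor: vapor mouse 17 was lowest in Dynlt1f, at 19.5 CPM, and vapor mouse 18 was highest in Tmem181a, at 145 CPM. Vapor mouse 18 was also highest in its group in mt-Nd2 (928 CPM) and Ndufs8 (72.6 CPM), and vapor mouse 17 was lowest in Slc7a11 (24.4 CPM) and highest in Myrf (5.94 CPM). Control 27 was highest among controls in Rpl10 (164 CPM) and Cacna1d (560 CPM), and control 36 was lowest in Gm26917 (248 CPM). By share of classed nuclei, control 26 was highest in endothelial cells, at 1.21%, and control 27 in striatal or olfactory neurons, at 22.2%.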

How the results depend on the processing

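No paired analysis was possible because the groups share no replicate numbers. Of 19 alternatives, DESeq2 moved the calls over all nuclei from 3 to 130, the WT mice alone to 0, the ribosomal RNA covariate to 1 (Kcnip4, named after its value was seen), and leaving out striatal or olfactory nuclei to 1. Leaving out each WT mouse gave 1 to 5 calls. Differences from the 3xTg-AD effect went from 0 to 1 with DESeq2 and without controls 26 and 27, and 0 to 1 without single mice. In glutamatergic nuclei the calls were 77 with DESeq2, 0 in WT mice alone and 1 with the covariate, and 1 to 6 without single mice. In GABAergic nuclei they were 20 with DESeq2, 1 with the covariate and 1 to 16 without single mice. In the astrocyte class DESeq2, the WT mice alone and the covariate each gave 4 calls. The WT mice alone gave 1 in oligodendrocytes and 3 in their precursors, and the covariate 1 in endothelial cells. Without single mice the ranges were 0 to 7 in oligodendrocytes, 0 to 2 in precursors, 0 to 1 in microglia and in endothelial cells and 0 to 16 in striatal or olfactory neurons. The cause of these shifts was not tested. Thinning nuclei to 1000 UMIs, chosen after seeing the data, turned the astrocyte share difference from 0.908 to -0.124 percentage points.

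Signs turned, none of them in genes that passed the test, for Gm42418 (0.023), AY036118 (0.22), mt-Atp8 (0.072), mt-Nd5 (0.13), Gria2 (0.044), Kcnj6 (0.18), Pcdh9 (0.036) and Malat1 (0.34) with the covariate. Counts of Gm42418 and AY036118 are part of that covariate, so their own change of sign with it cannot be read as a result. Without controls 26 and 27 they turned for AY036118 (0.16), mt-Atp8 (0.084), mt-Nd5 (0.20), mt-Nd2 (0.088), Kcnj6 (0.15) and Malat1 (0.26). Without single mice AY036118 ran from -0.32 to 0.014 (without control 26) and Slc17a7 from -0.057 to 0.0013 (without vapor mouse 6). RLE scaling and thinning turned none of the genes named. With 4 mice per group, 0 counts and genes under 1 CPM limit what can be shown.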
